A study of Triticum aestivum with 18 samples.

Results

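Winter wheat of the cultivar Hereward was sampled at the booting stage in 2011 on Broadbalk, the long-running fertiliser trial at Rothamsted, and root RNA of each sample was measured on its own Affymetrix Wheat Genome array. Roots from ground without magnesium fertiliser (low Mg) are compared here directly with roots from ground without sulfate fertiliser (low S). The arrays were chosen by their titles, 3 low Mg and 3 low S arrays, 6 of the 18 in the series. Magnesium fertiliser had been withheld since 1843 and sulfate since 2000, per the labels' protocol. The other 12 arrays serve as a scale of likeness and share in the estimate of the spread. They came, 3 each, from a nutrient-replete control and from plots without potassium (K) or phosphate (P) fertiliser or with low nitrogen (N) fertiliser. The labels give 1843 for these 3 deficiencies too, so low S is the only one dated 2000. All 6 groups were the same cultivar, organ and stage, and 500 ng of total RNA went into each labelling. How many plots a treatment had is not given in the sources used here, so plot and treatment cannot be told apart if a group came from 1 plot, and the p-values measure only the spread between these samples, which may be technical.

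Magnesium sits at the centre of the chlorophyll molecule and is bound to ATP in most reactions that use it, and plants short of it often load less sucrose into the phloem that feeds the roots. Sulfate is taken up by root transporters, reduced and built into cysteine, from which methionine, glutathione and the methyl donor S-adenosylmethionine are made. Plants short of sulfur typically raise their sulfate transporters and the enzymes of sulfate reduction in roots. The question put to the arrays is how alike roots under these long-term shortages were.

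Values are MAS5 intensities, the brightness of a probe set on a linear scale, and differences are log2 of low Mg minus log2 of low S, so that a positive value means higher in low Mg. Tests with limma covered 34255 of 61179 wheat probe sets, those that reached their array's median on 3 or more of the 18 arrays, and called means an adjusted p under 0.05. Only 1273 wheat probe sets carried a gene, and 75 genes with an informative name had a tested probe set. No sulfate transporter, no enzyme of sulfate reduction and no magnesium transporter is among the named genes. Array medians ran from 68.5 to 72.0 in low Mg and from 65.2 to 72.4 in low S, against 53.3 to 69.8 on the other arrays. The ubiquitin 5'/3' ratio, a measure of RNA integrity, was 1.15 to 1.25 in low Mg and 1.198 to 1.24 in low S. The same ratio was far lower for the G6PDH control, at 0.054 to 0.062 in low Mg and 0.048 to 0.065 in low S. For actin it varied widely within both groups, at 0.155 to 2.62 in low Mg and 0.691 to 2.90 in low S. The ranges of the 2 groups overlapped on each of these measures. Of the genes looked for as root markers, the lectin gene WGA2 was among the named and tested genes, at 4082 to 7882 over the 6 arrays. PER1, at 110 to 197 on its brighter probe set, was matched to the peroxidases by its symbol alone. No description of either product was at hand, so neither is taken as a root marker.

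No probe set was called between low Mg and low S roots. Limma called 0 of 34255 probe sets (0%) after Benjamini-Hochberg adjustment, and the smallest adjusted p was 0.462. An unadjusted p under 0.05 was reached by 1246 probe sets (3.64%), fewer than the 1713 (5%) that a flat distribution of p-values would give. The spread in this test was pooled over all groups. The median SD of log2 values was 0.175 in low Mg and 0.172 in low S, and from 0.167 (low N) to 0.223 (control) in the others. Whether the pooling lowered the share was not tested, so the shortfall is not read as likeness. The arrays of the groups did not overlap at 3429 probe sets (10%), 1784 higher and 1645 lower in low Mg. The median difference over all tested probe sets was 0.0077 log2. From the 5th to the 95th percentile the differences ran from -0.46 to 0.42, and the median of their absolute size was 0.116 log2.

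Against the other 14 pairs of groups, low Mg and low S were the most alike on each measure given here. The number of probe sets called was 0 here and from 6 (control against low S) to 5527 (low N against low P, 16.1%) in the others. The 3 pairs that set low Mg against another deficiency called 123 (low K), 561 (low N) and 610 (low P), or 0.359%, 1.64% and 1.78% of those tested. For low S the same pairs called 965 (2.82%), 1786 (5.21%) and 287 (0.838%). The median absolute difference of group means was 0.153 to 0.271 log2 in the other pairs, and the share of probe sets with non-overlapping arrays was 12.3% to 35.8%. Pairs that share a group are not independent of each other, so this order is a description. After quantile normalization low Mg and low S still had the lowest number called (0) and the smallest median absolute difference (0.119 log2) of the 15 pairs.

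**Figure D1:**
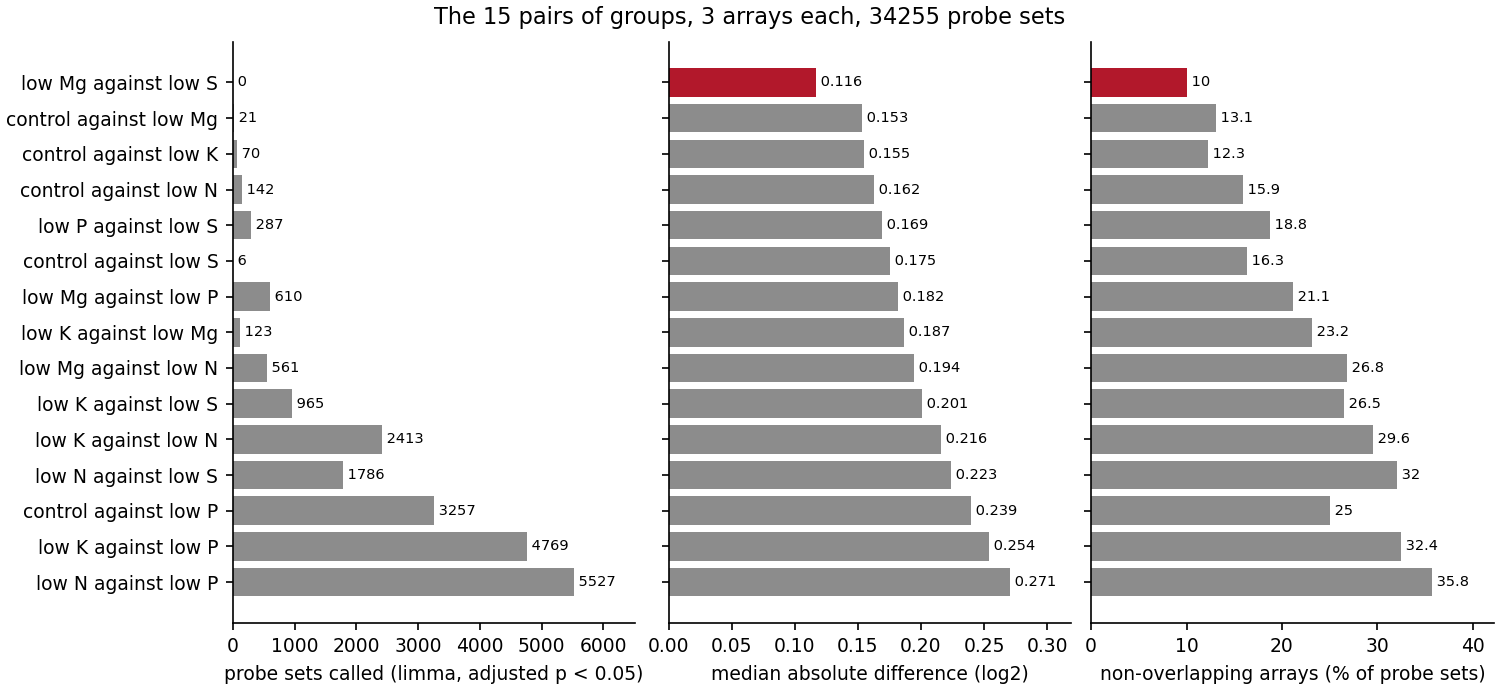
Bars give, for each of the 15 pairs of groups (3 arrays each), the number of probe sets called by limma, the median absolute log2 difference of group means, and the percent of probe sets whose arrays do not overlap. The low Mg and low S pair has the shortest bar in each panel, at 0 called, 0.116 log2 and 10%.

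On average, single arrays were about as close across the treatments as within them. Over the 34255 probe sets, the 9 correlations between a low Mg and a low S array averaged r = 0.9702 ± 0.0027 (SD) and ran from 0.9660 to 0.9736. Correlations among the 3 low Mg arrays ran from 0.9696 to 0.9714, and among the 3 low S arrays from 0.9695 to 0.9717. The means within low Mg and within low S were 0.9705 and 0.9706. The range across the treatments was wider than the ranges within them and held both. Arrays of low Mg or low S correlated with arrays of the other groups at 0.9607 on average (72 pairs), and arrays within another group at 0.9652 (12 pairs). These correlations are across probe sets, which are not independent replicates, and most of their height comes from stable differences in brightness between probe sets.

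For 5 of the 6 arrays the nearest array of all 18 belonged to the other treatment. Each array had 3 candidates in the other treatment and 2 in its own, so the other treatment was favoured from the start. Low Mg arrays 1 and 2 were nearest to low S array 2, at r = 0.9736 and 0.9727. Low S array 2 was nearest to low Mg array 1, and low S arrays 1 and 3 were nearest to low Mg array 2, at 0.9719 and 0.9725. The exception was low Mg array 3, whose nearest was low Mg array 1 (0.9714) with low S array 2 next (0.9711). Outside these groups, 2 arrays also had their nearest here. Control array 2 was nearest to low S array 2 (0.9721) with low Mg array 2 next (0.9700), and low P array 2 was nearest to low Mg array 1 (0.9674) with low S array 3 next (0.9672), while control arrays 1 and 3 were both nearest to low K array 1. The median absolute difference between 2 single arrays was 0.196 log2 on average between low Mg and low S, 0.197 within low Mg and 0.193 within low S.

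**Figure D2:**
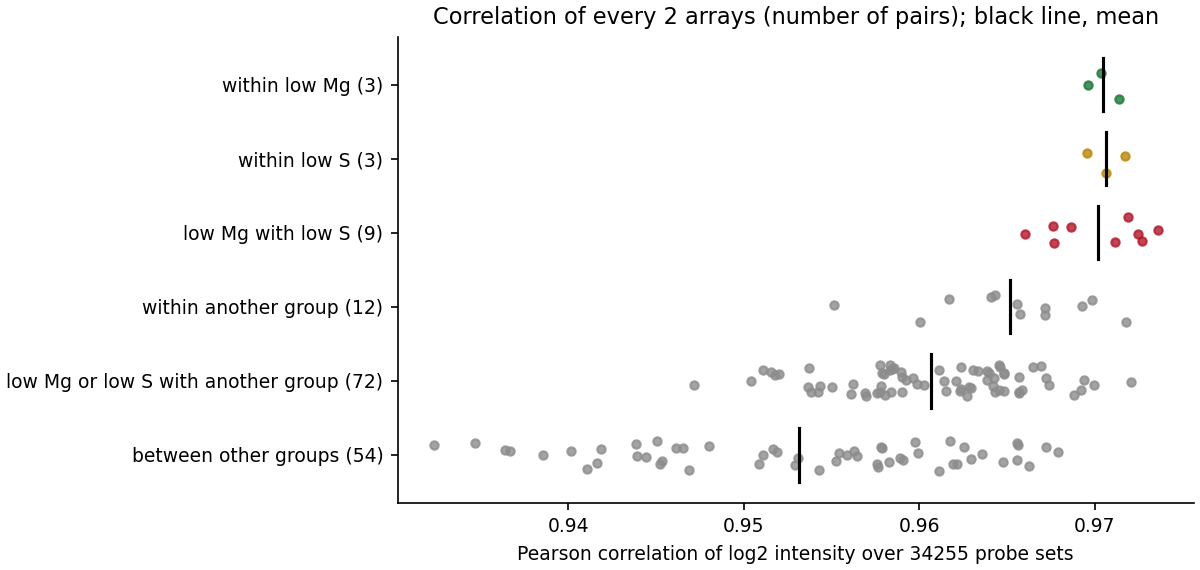
Each point is the Pearson correlation of log2 intensity between 2 arrays over 34255 probe sets, in 6 classes of pairs with the number of pairs in brackets. The 9 low Mg with low S pairs (0.9660 to 0.9736) spread wider than the pairs within low Mg (0.9696 to 0.9714) and within low S (0.9695 to 0.9717), about a like mean. They lie above most pairs that involve other groups.

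A p that misses the threshold does not show that levels were equal, so the intervals of the differences matter more than the count of 0. The 95% confidence interval lay wholly within 1 log2 unit of 0, that is within a 2-fold change either way, for 27306 of 34255 probe sets (79.7%). Among probe sets brighter than the median this held for 97.4%, and 86.0% were held within 1.5-fold. Among the dimmer ones 62.0% were held within 2-fold. In the dimmest 10% of probe sets, with a median intensity of 46.5, the interval reached 1.25 log2 to either side at the median, and 11.1% of probe sets were held within 2-fold. In the brightest 10%, with a median intensity of 6091, it reached 0.196 log2, and 98.9% were. In each 10% class of brightness but the dimmest, the interval reached 0.770 log2 or less to either side at the median, under the 1 log2 unit of a 2-fold difference.

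Differences past 2-fold were found almost wholly among dim probe sets. Of 615 probe sets (1.8%) past 2-fold, 304 were higher and 311 lower in low Mg. Their median intensity was 44.2, against 329 for all tested probe sets, and 605 of them were dimmer than the median. For 2 probe sets the interval lay wholly beyond 1 log2 unit. No detection calls were used, so signal and background are not separated for the dimmest of them.

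**Figure D3:**
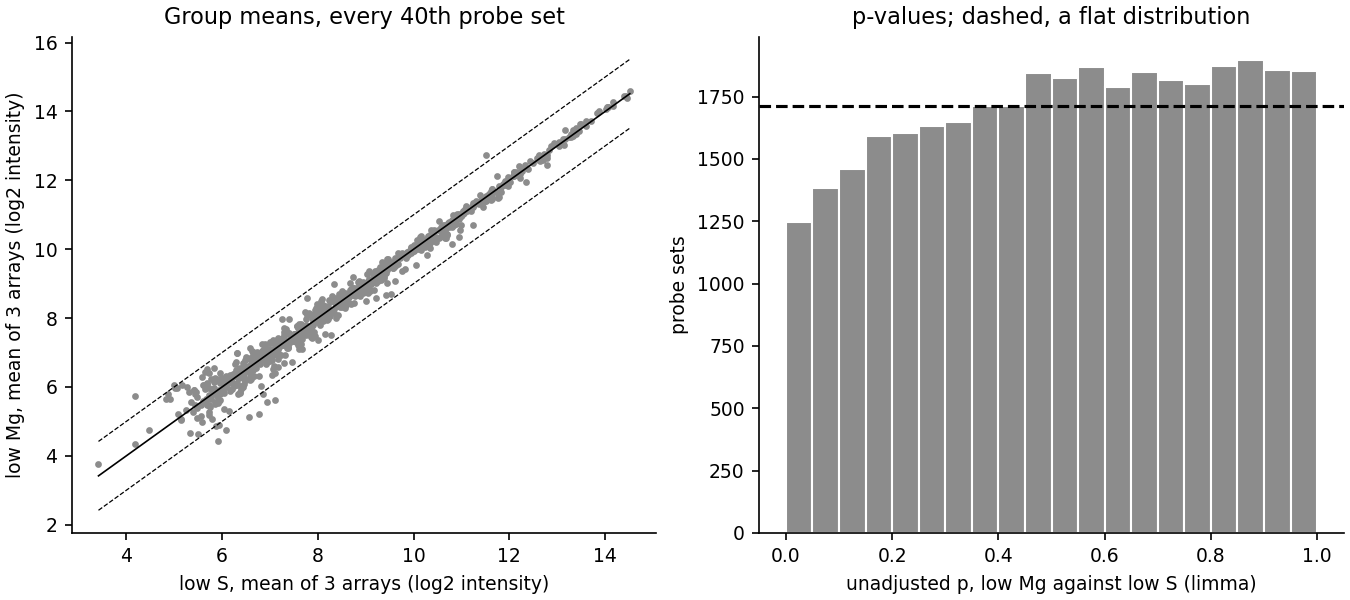
Left, the mean log2 intensity of low Mg against that of low S for every 40th tested probe set; right, the number of probe sets per 0.05 of unadjusted limma p, with a dashed line at the 1713 of a flat distribution. Points spread about the diagonal mainly at low intensity, and the lowest bar of p-values holds 1246 probe sets, under the line.

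Probe sets that varied among the other groups were also compared between low Mg and low S. A limma F-test on the 12 arrays of control, low K, low N and low P alone, without any low Mg or low S array, picked 3652 probe sets whose means in those groups spread over 0.786 log2 at the median. At these probe sets the median absolute difference of low Mg from low S was 0.110 log2, against 0.117 at the other 30603. Of the 3652, 0 were called and 220 (6.02%) reached an unadjusted p under 0.05, with non-overlapping arrays at 11.5%. Among the other 30603 these shares were lower, at 3.35% and 9.83%. The 3652 were brighter (median intensity 929 against 281), and 90.7% of their intervals lay within 1 log2 unit. Tested probe sets of like brightness, in the 10% classes with median intensities of 674 and 1134, had median absolute differences of 0.0890 and 0.0762 log2, smaller than the 0.110 here.

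Each low Mg and low S array was placed on the line from one group to another over the probe sets that differ between those groups on the same 12 arrays, with 0 at the first group's mean and 1 at the second's. On the line from low K to low P (3126 probe sets) the low Mg arrays lay at 0.560, 0.468 and 0.471, and the low S arrays at 0.534, 0.505 and 0.547. On the line from low N to low P (4093 probe sets) the low Mg arrays lay at 0.525, 0.386 and 0.522, and the low S arrays at 0.532, 0.477 and 0.673. On the line from low K to low N (1158 probe sets) the low Mg arrays lay at 0.414, 0.412 and 0.357, and the low S arrays at 0.425, 0.411 and 0.347. Both treatments thus stood between the end groups on each line, nearer to low K than to low N on the last, and their arrays overlapped on all 3. The probe sets were picked because the end groups differ there, so a further group tends to fall between the ends. No other group was placed for comparison, and nothing is read from the positions themselves.

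The sulfur and methyl genes, the nearest to the missing sulfate among the named genes, differed little between the treatments. They hold no sulfate transporter and no enzyme of sulfate reduction. Of 8 tested genes of sulfur amino acids, glutathione and methyl transfer, each on its brightest probe set, 0 were called, the median difference was 0.03 log2 with a range from -0.14 to 0.22, and all 8 intervals lay within 1 log2 unit. By comparison, the 75 named genes had a median of 0.03 and all tested probe sets one of 0.0077. The arrays did not overlap at 2 of these 8 genes (25%), against 10% of all tested probe sets. Cys1, a cysteine synthase that makes the first organic sulfur compound, stood at 9814, 11082 and 11409 in low Mg and at 9701, 10783 and 10672 in low S. The arrays of the groups interleaved, and the difference was 0.05 ± 0.09 log2 (SE; 95% interval -0.15 to 0.25). PCS1, which turns glutathione into phytochelatins, peptides that bind metals, differed by -0.04 ± 0.13, and GSTZ1, a glutathione transferase, by 0.01 ± 0.09.

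The largest differences of that group were in the methyl cycle. SAHH, which breaks down the S-adenosylhomocysteine left by each methyl transfer, stood at 28475, 26668 and 34435 in low Mg and at 26325, 25876 and 24164 in low S. All 3 low Mg arrays were higher, by 0.22 ± 0.15 log2, but the gene was not called (95% interval -0.09 to 0.53; limma adjusted p = 1.000). PEAMT1, the methyltransferase on the way to choline, stood at 9854, 9980 and 12162 in low Mg and at 9612, 9225 and 8668 in low S, again without overlap and again not called (0.21 ± 0.12, interval -0.04 to 0.47). COMT1, which methylates lignin precursors, stood at 21637 to 28982 in low Mg and at 22986 to 24687 in low S, a difference of 0.05 ± 0.12. For SAHH and PEAMT1 the highest value was on low Mg array 3, the array that was highest of the 6 at 26 of the 75 named genes (34.7%) and at 18.2% of all tested probe sets. Without that array the differences were 0.12 log2 for SAHH and 0.11 for PEAMT1.

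Genes of transport and metal uptake were 4, and 0 were called, with a median of 0.13 log2. DMAS1, which makes the iron chelator that cereal roots release, stood at 1125 to 1184 in low Mg and at 1050 to 1185 in low S (0.06 ± 0.10). The plasma membrane proton pump gene ha1, which powers the uptake of nutrients, differed by 0.09 ± 0.14, and TPC1, a vacuolar cation channel, by 0.17 ± 0.12. ALMT1, the aluminium-activated malate transporter, stood at 88.5, 77.6 and 117 in low Mg and at 121, 63.3 and 21.0 in low S. Its difference of 0.77 ± 0.45 had an interval from -0.17 to 1.72, wide enough to hold both no change and a 2-fold one.

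Genes of photosynthesis were of interest because magnesium belongs to chlorophyll and because they mark green tissue in a root sample. Of 4 tested, 0 were called, and the median was -0.34 log2. PsbO, a protein of the water-splitting complex of photosystem II, stood at 451, 395 and 517 in low Mg and at 998, 462 and 566 in low S (-0.50 ± 0.39, interval -1.32 to 0.32). PsbP, of the same complex, gave -0.35 ± 0.35 on its brighter probe set and -0.57 ± 0.35 on the other, where the low Mg arrays read 133, 140 and 170 and the low S arrays 313, 186 and 178. PetC, the Rieske protein of the cytochrome b6f complex, stood at 208, 220 and 384 in low Mg and at 472, 261 and 282 in low S (-0.33 ± 0.38). Low S array 1 held the highest value for each of these nuclear genes. Rbcl, the large subunit of Rubisco, stood at 19916 to 25130 in low Mg and 20152 to 23671 in low S, a difference of 0.01 ± 0.12 on its brightest probe set, while another of its probe sets gave -0.92 with overlapping arrays. Without low S array 1 the difference on the dimmer PsbP probe set was -0.31 log2.

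No cytoskeleton, wall or growth gene was called. All 7 cytoskeletal genes had a higher mean in low Mg, as had 17806 of the 34255 tested probe sets, with a median of 0.13 log2 and a range from 0.02 to 0.22. On the brightest probe set 1 of the 7 had non-overlapping arrays, against 10% of all tested probe sets. Tubb5, a beta-tubulin, stood at 2227, 2634 and 2198 in low Mg and at 2006, 2129 and 1867 in low S on the probe set with the smallest p (0.23 ± 0.11, interval -0.0028 to 0.47), and its other 3 probe sets gave 0.14 to 0.20. Without low Mg array 2 the difference was 0.15. XTH, an enzyme that cuts and rejoins the xyloglucan of growing cell walls, stood at 744, 713 and 737 in low Mg and at 607, 592 and 447 in low S. Its difference of 0.43 ± 0.19 was the only one of the 75 named genes on its brightest probe set to reach an unadjusted p under 0.05, where 3.64% of all tested probe sets did, and it was not called (interval 0.03 to 0.83). GA20ox1d, a gibberellin 20-oxidase, differed by 0.31 ± 0.20 on 1 probe set and by 0.13 ± 0.23 on its brightest. The other carbohydrate genes differed by -0.27 to 0.10, with the fructan exohydrolases 1-FEH at -0.04 ± 0.08 and 6-FEH at 0.08 ± 0.23.

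Chromatin genes were close between the treatments. All 6 tested, 5 of them histones, had intervals within 1 log2 unit, with a median of 0.01 and a range from -0.16 to 0.15. H2A-9, a histone H2A, stood at 10012, 12132 and 11376 in low Mg and at 11301, 10745 and 10476 in low S. Among the 10 genes of transcription and translation 9 intervals lay within 1 log2 unit. TEF1, a translation elongation factor, stood at 25188, 23983 and 28153 in low Mg and at 23551, 23620 and 23001 in low S, a difference of 0.14 ± 0.09 without overlap and without a call, and of 0.07 without low Mg array 3. NCBP, a cap-binding protein, differed by 0.11 ± 0.07, likewise. The exception was RPS29, a ribosomal protein gene read here at 84.1 to 480, with 0.83 ± 0.52.

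No stress or defence gene was called between the treatments. Of 6 stress and folding genes 0 were called, and 2 had intervals within 1 log2 unit. LEA1, a late embryogenesis abundant protein, stood at 5732, 6192 and 4647 in low Mg and at 5583, 7601 and 11195 in low S (-0.51 ± 0.28, interval -1.10 to 0.08). The dehydrin gene Rab15 differed by 0.01 ± 0.16 and the folding protein gene FKBP70 by 0.04 ± 0.07. Of 8 redox and defence genes 0 were called, with a median of -0.06 and a range from -0.25 to 0.13. PER1 gave the largest difference among the named genes on its dimmer probe set, at 141, 171 and 227 in low Mg and 56.5, 45.3 and 86.9 in low S (1.54 ± 0.44, interval 0.61 to 2.46; limma adjusted p = 1.000). Its brighter probe set showed 0.07 ± 0.23, so the 2 probe sets disagree.

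The remaining named genes were 5 of grain proteins and inhibitors, with a median of -0.08, and 9 of other roles, with a median of 0.03, of which 0 were called. Over all 75 named genes 44 were higher and 31 lower in low Mg, 7 (9.33%) had non-overlapping arrays, against 10% of all tested probe sets, and the median absolute difference was 0.112 log2 against 0.116. Of the 961 tested probe sets with any annotated gene, 23 (2.39%) reached an unadjusted p under 0.05.

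**Figure D4:**
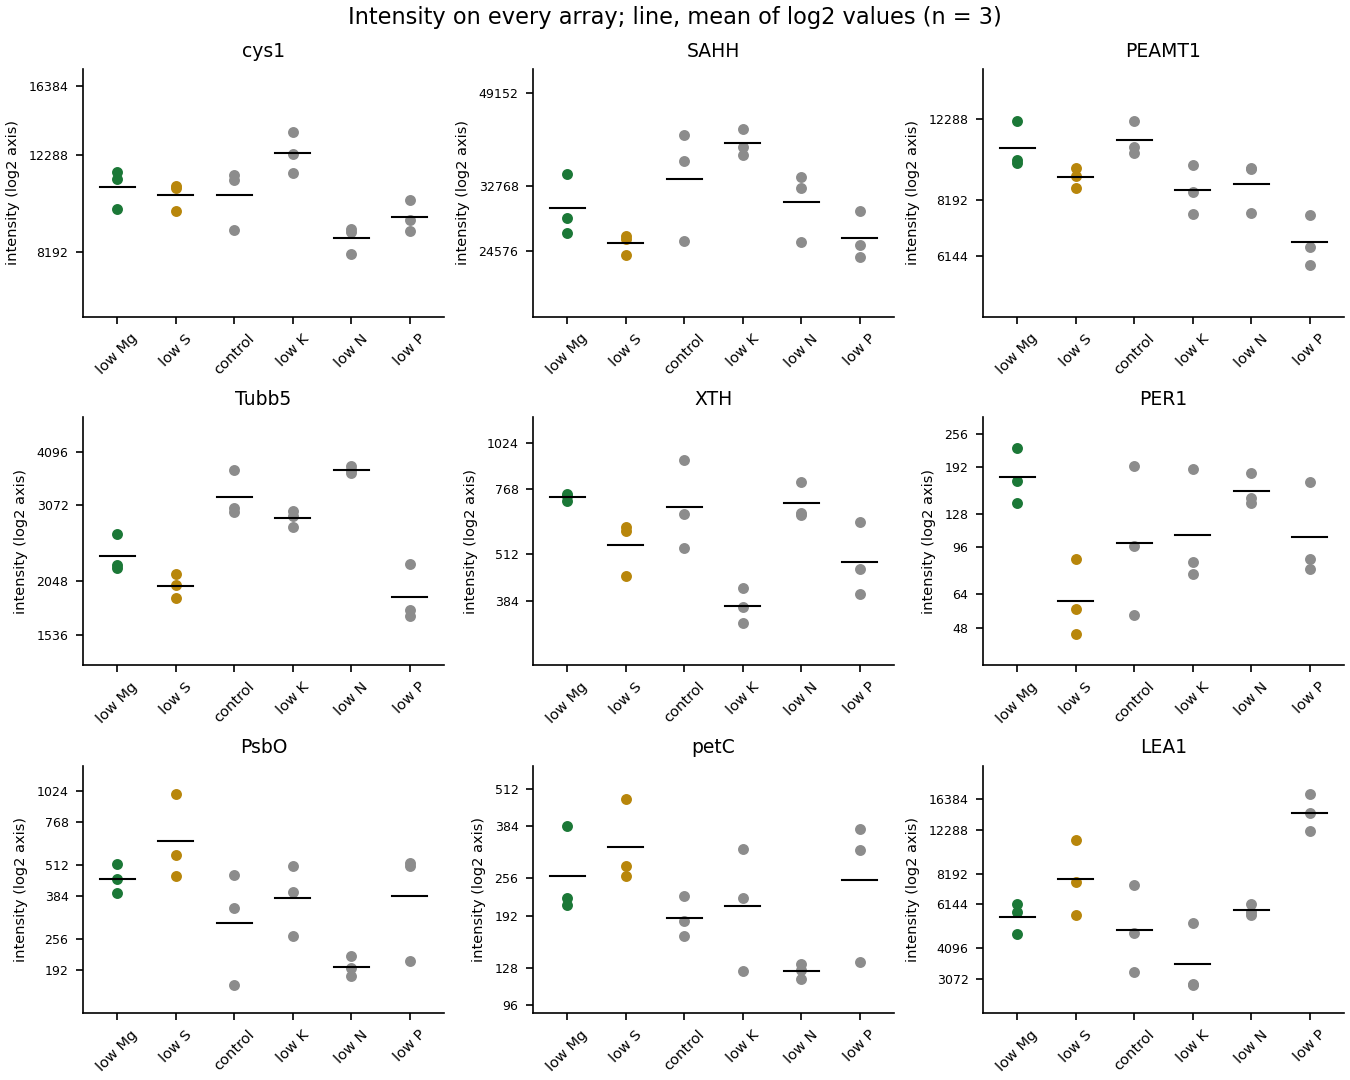
Intensity on every array (log2 axis) for 9 named genes, with the mean of log2 values as a line (n = 3 per group); low Mg is green, low S ochre and the other groups grey, and PER1, Tubb5 and SAHH are shown on the probe set of smallest p. Low Mg and low S overlap for cys1, PsbO, petC and LEA1 and are apart without a call for SAHH, PEAMT1, Tubb5, XTH and PER1 (0.21 to 1.54 log2).

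The probe sets with the smallest p had no gene name, and they were picked after their values were seen. The probe set of smallest p stood at 9633, 10253 and 13113 in low Mg and at 5655, 6629 and 5816 in low S, a difference of 0.86 ± 0.14 log2 that was not called (interval 0.56 to 1.15; limma adjusted p = 0.462). Its mean was 10759 in low K, close to low Mg, and 5943 in the control, close to low S. The next stood at 896, 1201 and 1350 in low Mg and at 675, 633 and 499 in low S (0.92 ± 0.17; limma adjusted p = 0.733). In the other direction, the probe set of smallest p stood at 1522, 1487 and 1483 in low Mg and at 1971, 1807 and 1793 in low S (-0.31 ± 0.07). A brighter one stood at 10522, 9071 and 9499 in low Mg and at 11532, 12184 and 13550 in low S (-0.36 ± 0.08), and for both of these limma gave an adjusted p of 1.000. None of these differences passed the adjustment over 34255 tests.

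The count of 0 rested on low Mg array 1 for 4 probe sets. Without that array 4 were called, all higher in low Mg and none with a gene name. The largest difference was 1.12 log2 (limma adjusted p = 0.0416), against 0.91 with all arrays. The other 3, whose array identifiers share a stem, gave 0.68 to 0.79 log2 without the array and 0.52 to 0.61 with it. At the first of the 4, low Mg array 1 read 1404 and the other low Mg arrays 2025 and 2304, against 918 to 1080 in low S. Leaving out any other of the 6 arrays gave 0 calls.

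Few probe sets were called when low Mg and low S together were set against the other deficiencies. More reached an unadjusted p under 0.05 than the 5% of a flat distribution, so the count called does not measure how much was shared. With the mean of low Mg and low S set against the mean of low K, low N and low P, a contrast that holds no control array, limma called 36 probe sets (0.105%), 33 higher (0.0963%) and 3 lower (0.00876%), with 15% of probe sets at an unadjusted p under 0.05. Absolute differences ran from 0.32 to 1.97 log2 with a median of 0.61. At these 36 probe sets low Mg and low S differed from each other by 0.092 log2 at the median and by 0.58 at most. Their median intensity was 1003. All tested probe sets in the 10% classes with median intensities of 674 and 1134 differed by 0.0890 and 0.0762 log2, so this closeness was not particular to the 36. The contrast can also be met by a fall in low K, low N or low P, and for 19 of the 33 higher ones the control mean was above those 3 groups too. For 19 of the 36 the low Mg and low S means were both above all 4 other group means, and for 3 they were both below.

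The probe set with the smallest p in this contrast, which has no gene name, gave 376, 440 and 409 in low Mg and 439, 459 and 553 in low S. It ranged from 169 to 357 over the 9 low K, low N and low P arrays and from 265 to 332 in the control. All 6 arrays were thus above the other 12, and the joint difference was 0.77 ± 0.09 log2 (limma adjusted p = 0.00673). The next, also without a name, gave 1317, 1237 and 1286 in low Mg and 1257, 1368 and 1186 in low S, against 692 to 1064 over low K, low N and low P (0.53 ± 0.07; limma adjusted p = 0.00673). The control reached 1212 there, inside the range of low S. Of the 3 lower ones, the probe set of largest difference, without a name, was at 967, 1209 and 929 in low Mg and 1246, 1059 and 675 in low S, against 1452 to 2604 (-0.93 ± 0.16; limma adjusted p = 0.0375). The control gave 2633, 1146 and 1198 there, so 2 of its 3 arrays lay inside the range of low Mg and low S.

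Only 2 of the 36 had an annotated gene, neither with an informative name. LOC543338 gave 1055 to 1132 in low Mg and 1091 to 1190 in low S, and 777 to 1044 in low K, low N and low P (0.32 ± 0.06; limma adjusted p = 0.0410). LOC780610 gave 1252 to 1525 and 1315 to 1378, against 1398 to 2393 (-0.36 ± 0.06; limma adjusted p = 0.0452). Of the 5 probe sets given, the first 2 stayed called whichever of the 15 arrays was left out, and the other 3 stayed called in 3, 2 and 3 of the 15 leave-outs. The count itself moved by more than 1.5 times without low Mg array 2 (17) or 3 (5), low S array 2 (6) or 3 (9), low K array 3 (15), low N array 1 (23), or low P array 1 (68), 2 (121) or 3 (18).

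**Figure D5:**
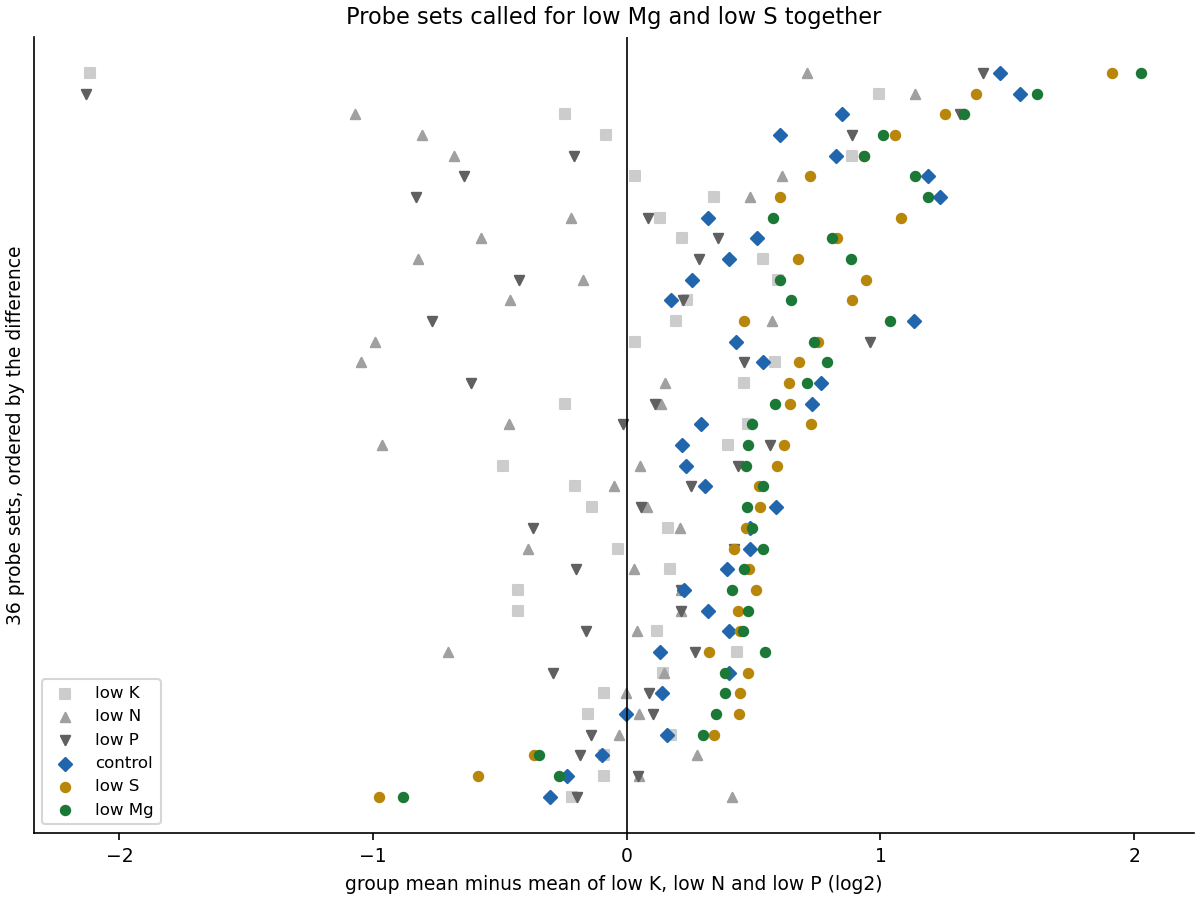
For the 36 probe sets called in the contrast of low Mg and low S together against low K, low N and low P, each group mean is shown minus the mean of those 3 groups (log2), in order of the difference. Low Mg and low S points lie near each other, 0.092 log2 apart at the median, and control points lie between them and 0 for many probe sets.

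Set against the control, low Mg gave 21 called probe sets (0.0613%; 18 higher, 3 lower) and low S gave 6 (0.0175%; all higher). These comparisons share the 3 control arrays, so their values are given side by side only. An unnamed probe set with the smallest adjusted p for low S was higher than control by 0.95 log2 in low Mg (limma adjusted p = 0.0428) and by 1.41 in low S (limma adjusted p = 0.00221). Another was higher by 0.80 in low Mg (limma adjusted p = 0.0428) and by 0.98 in low S (limma adjusted p = 0.0118). Low P stood higher still at both, with means of 3617 and 865, against 2214 and 689 in low S and 838 and 348 in control. These rises were thus not particular to low Mg and low S. By contrast, the one called without low Mg array 1 at 1.12 log2 was higher by 1.40 in low Mg (limma adjusted p = 0.00615) and by 0.49 in low S, where it was not called (limma adjusted p = 0.261). Its mean was 1392 in low K, against 1911 in low Mg, 995 in low S and 717 in control. A mean well above control was thus not particular to low Mg there. At none of the 21 or the 6 was the direct difference of low Mg from low S called by limma, and its absolute size was 0.50 and 0.39 log2 at the median. Its unadjusted p was under 0.05 at 17 of the 21 and 3 of the 6, against 3.64% of all tested probe sets, but these probe sets had been picked for extreme low Mg or low S values, so nothing is read from that count. These 3 probe sets have no gene name and were picked after their values were seen.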

How the data were processed

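Root RNA was hybridised to 1 array per sample. The authors deposited 1 linear intensity per probe set and array, made with Affymetrix Expression Console and MAS5 per the submitters' processing notes, with versions not given in the sources used here. The trimmed mean was 500.1 throughout, so arrays had been scaled to a common mean, which leaves their medians free to differ. The 111 control probe sets were left out. The deposited intensities were turned to log2 without a constant and fitted with limma 3.58.1 in R 4.3.3 (6 group means on all 18 arrays, eBayes with an intensity trend, 12 residual degrees of freedom), two-sided, with Benjamini-Hochberg adjustment over 34255 probe sets. In the direct contrast control arrays entered only the filter and the spread. The number of arrays limits the precision.

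Gene names came from the platform annotation, 770 of 771 genes matching RefSeq IWGSC CS RefSeq v2.1. Probe sets ending in _x_at, _s_at or _a_at can read related transcripts, such as the copies on the other wheat genomes. Named genes, each on its probe set of smallest p, were the 10 largest called differences per direction, filled from genes with non-overlapping arrays where fewer were called. Named in this way were PER1, XTH, GA20ox1d, Tubb5, SAHH, PEAMT1, TEF1, Tubb4, NCBP, a second probe set of PsbP and an alpha-amylase inhibitor, and none was called. Of 15 gene lists chosen at the outset most had fewer than 5 named genes and 3 (sulfate uptake, nitrogen uptake, phosphate starvation) had 0, so 11 groups were formed from the annotation, represented by the brightest probe set. Members, lists and groups were chosen with earlier results of these data known. Same-numbered low Mg and low S arrays did not deviate together (r = -0.032, -0.097 and -0.0014), so replicate numbers were not taken as pairs. The script was tested on simulated data. Figures used matplotlib 3.10.9 in Python 3.11.15.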

Additional observations from a re-analysis of the deposited data

How the results depend on the processing

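The count of 0 probe sets called between low Mg and low S held under quantile normalization, 75th-percentile centring, log2(intensity + 16), no filter, a filter at 9 of 18 arrays, no intensity trend, without control arrays, with the 6 arrays alone and with the replicate number as a block, where the smallest adjusted p was 1.000. It also held without control array 2, a setting added after seeing the data. Leaving out 1 of the 6 arrays gave 0 to 4.

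The share of intervals within 1 log2 unit (79.7%) was 86.9% with 16 added, 45.2% without a filter, 87.3% with the stricter filter, 80.6% without control arrays, 82.7% with 6 arrays, 80.2% without control array 2 and 74.5% to 75.4% with 1 array left out. The mean correlation (0.9702) was 0.979 with 16 added, 0.944 without a filter, 0.979 with the stricter filter and 0.9691 to 0.9710 with 1 array left out. The median absolute difference (0.116) was 0.214 without a filter and 0.121 to 0.139 with 1 array left out. The share of non-overlapping probe sets stayed at 9.98% to 10.3%.

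The joint contrast (36: 33 higher, 3 lower) gave 62 with quantiles equalised (56 and 6), 17 with 75th-percentile centring (14 and 3), 5 without the intensity trend, 82 without control arrays (58 and 24), 56 with the replicate block (50 and 6), 60 without control array 2 (44 and 16), and 5 to 121 with 1 array left out. The cause was not tested. For the genes and probe sets named in the comparisons, 317 of 360 values kept their direction and side of the threshold, 43 lost the call and 0 reversed. Only the probe sets named for the joint contrast were called in the main fit, so all 43 losses were theirs. The values of the direct comparison started uncalled and could not lose a call, so the 317 do not measure how stable the joint calls were.

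Dim probe sets, unnamed transcripts and 3 arrays a group limit what can be resolved, and the alternatives do not bear on how many plots each treatment had.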
